A study of Apis mellifera with 18 samples.

Results

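The transcripts of period and cryptochrome 2, which encode core repressors of the insect circadian clock, were followed in 18 RNA-seq libraries of honey bee (Apis mellifera) tissue. They are represented by 3 of the 17545 genes of the deposited table and were chosen by name. GB52077 and GB52078 are both given as period, and GB51095 is given as cryptochrome 2. The libraries came from mouthparts and from tissue that the labels call tentacles. In each tissue 3 libraries belonged to a collection group labelled with Olea europaea (olive) pollen, called olea here, 3 to a collection group labelled with pear pollen, and 3 to a control group without pollen. By its title, the series asks how Italian honey bees differ in what they prefer to collect. The labels give no age, colony or time of day of sampling, and do not say whether the 3 libraries of a group came from separate animals, pools or repeated preparations, so that p-values measure only the spread between these libraries. The 3 mouthparts libraries grouped as olea have titles and source names that name pear pollen and genotype entries that name olea pollen, and every mouthparts value for olea rests on the genotype entry.

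In the animal clock, a pair of activating transcription factors, CLOCK and CYCLE, switches on genes whose products later shut the pair down. In Drosophila the repressor is PERIOD with TIMELESS, whereas the honey bee lacks the Drosophila-type timeless and the light-sensing Drosophila-type cryptochrome. It carries instead cryptochrome 2, a light-insensitive repressor of the mammalian kind, beside period. In the honey bee brain, period and cryptochrome 2 transcripts cycle over the day with a similar phase, and their daily cycles are stronger in foragers than in nurses. The values below are therefore levels and show no cycle. Whether the groups were collected at the same hour is not given, and an effect of the hour cannot be told apart from one of pollen.

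The protein domain that the table gives for GB52077 is PAS, the domain through which clock proteins bind each other. For GB52078 it is the period C-terminal region, a part by which period proteins bind cryptochromes in mammals. Both had the same best KEGG hit, the honey bee gene Per of the reference gene table, and no other of the table's genes had it. They are therefore called the PAS model and the C-terminal model of period, and their counts were not read as independent measures of that gene. GB51095 carries the FAD binding domain of DNA photolyase, from which cryptochromes derive, and is the only ID with its hit, Cry2. The table's own assignment to the circadian rhythm pathway includes both period models and leaves out cryptochrome 2.

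Library totals ran from 25.9 to 41.4 M (1e6 counts), and each of the 3 genes had between 421 and 3542 counts in every library, so all of them passed the filter on low counts in every fit. Orco (GB40730), the co-receptor of odorant receptors, had 377 to 580 scaled counts per 1e6 (scaled CPM, counts divided by library totals scaled by TMM, which evens out differences in composition) in the tentacles, and 0 to 5.35 in the mouthparts. The homeotic gene proboscipedia (GB51302), which specifies mouthparts in insects, had 66.6 to 106 scaled CPM in the mouthparts and 0 to 0.30 in the tentacles. Each tissue thus carried its own marker in all 9 libraries, and little or none of the other's.

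Per length of transcript, the C-terminal model of period had the highest level of the 3 in all 18 libraries. In FPKM (fragments per kilobase and per 1e6 fragments), it ran from 16.5 to 41.7 with a median of 26.4. The PAS model ran from 10.2 to 21.4 FPKM with a median of 14.1, and cryptochrome 2 from 4.87 to 10.7 FPKM with a median of 8.11. In the 6 group means, between 74.0% and 84.8% of the genes with an FPKM value lay below the C-terminal model, between 56.2% and 74.3% below the PAS model, and between 45.7% and 58.4% below cryptochrome 2.

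In the mouthparts, the PAS model of period had 27.0, 30.1 and 21.9 scaled CPM in olea libraries, 43.2, 40.0 and 39.0 in pear libraries, and 32.9, 42.1 and 33.0 in control libraries. In the tentacles it had 22.6, 21.7 and 23.3 scaled CPM in olea libraries, 19.3, 18.8 and 18.3 in pear libraries, and 28.7, 30.7 and 30.2 in control libraries. Olea libraries lay below the controls in both tissues, while pear libraries lay below every control in the tentacles and overlapped with the controls in the mouthparts.

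The C-terminal model had 44.6, 52.5 and 37.6 scaled CPM in olea mouthparts, 71.8, 76.3 and 73.2 in pear mouthparts, and 62.7, 65.8 and 65.1 in control mouthparts. In the tentacles it had 49.4, 47.7 and 48.6 scaled CPM in olea libraries, 42.2, 41.9 and 41.9 in pear libraries, and 62.3, 77.8 and 65.7 in control libraries. Here the 3 pear libraries of the mouthparts lay above all 3 controls, and all pollen libraries of the tentacles lay below all controls.

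Cryptochrome 2 had 25.0, 25.1 and 23.3 scaled CPM in olea mouthparts, 31.0, 30.4 and 29.4 in pear mouthparts, and 19.8, 16.9 and 18.8 in control mouthparts. In the tentacles it had 24.3, 29.2 and 24.6 scaled CPM in olea libraries, 25.2, 26.5 and 27.0 in pear libraries, and 17.1, 18.2 and 16.9 in control libraries. Every pollen library of both tissues lay above every control library, with no overlap. How many of all genes show such gaps between groups was not counted, here and for period.

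**Figure D1:**
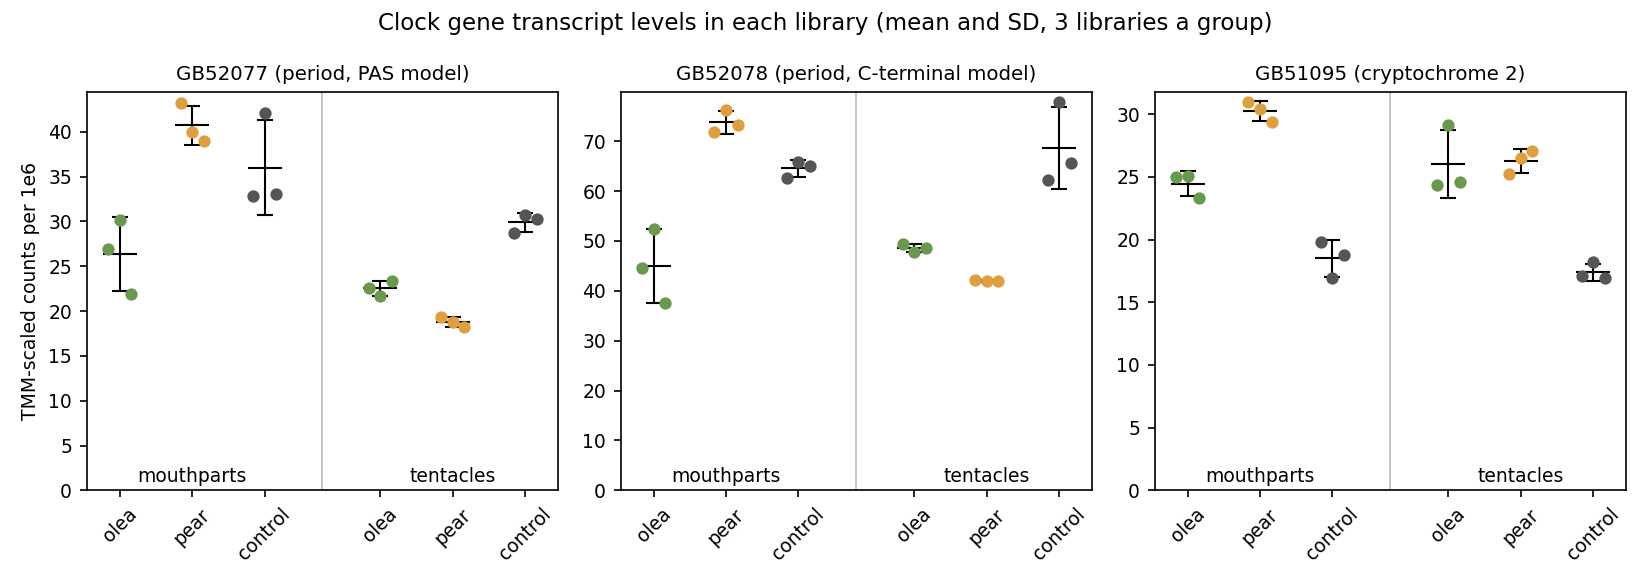
TMM-scaled counts per 1e6 of the PAS model and the C-terminal model of period and of cryptochrome 2 in each of the 18 libraries, by tissue and pollen group. Points are libraries, and lines and whiskers are the mean and SD of 3 libraries. Both period models are high in pear mouthparts and low in pear tentacles, while cryptochrome 2 is lowest in the control groups of both tissues.

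Ordered by mean level, the PAS model stood highest in pear mouthparts with 40.7 ± 2.2 scaled CPM and lowest in pear tentacles with 18.8 ± 0.52 (SD, n = 3 each). Between these lay control mouthparts (36.0 ± 5.3), control tentacles (29.9 ± 1.1), olea mouthparts (26.3 ± 4.1) and olea tentacles (22.5 ± 0.83). Of the 5 pairs of neighbours in that order, only control mouthparts and control tentacles, and olea tentacles and pear tentacles, had ranges that did not overlap. The C-terminal model had the same groups at its ends, pear mouthparts with 73.8 ± 2.3 scaled CPM and pear tentacles with 42.0 ± 0.15. Its only gap between neighbouring groups separated control mouthparts (64.5 ± 1.6) from olea tentacles (48.6 ± 0.86). Cryptochrome 2 formed 3 tiers, with pear mouthparts on top (30.3 ± 0.80 scaled CPM), then pear tentacles (26.2 ± 0.94), olea tentacles (26.0 ± 2.7) and olea mouthparts (24.5 ± 1.0), and then control mouthparts (18.5 ± 1.5) and control tentacles (17.4 ± 0.68). Within the middle and the lowest tier the ranges of neighbours overlapped.

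In olea mouthparts compared with control mouthparts, both period models were lower and cryptochrome 2 was higher. The edgeR quasi-likelihood test with Benjamini-Hochberg adjustment over all 12285 genes tested in this tissue gave a log2 fold change of −0.43 ± 0.13 (SE, n = 3 per group here and below) for the PAS model, with an adjusted p of 0.0245. For the C-terminal model it was −0.51 ± 0.10, with an adjusted p of 0.00239. For cryptochrome 2 it was +0.42 ± 0.08, a fold of 1.34, with an adjusted p of 0.00290. All 3 genes thus passed at an adjusted p under 0.05, in a comparison that called 26.8% of all genes tested, 12% as higher and 14.8% as lower. The call of the PAS model depends on single libraries, with −0.30 and an adjusted p of 0.0995 without control library 2, −0.45 and 0.0552 without olea library 1, and −0.32 and 0.0803 without olea library 3. In bulk tissue, fewer cells of a type that expresses a gene and less RNA per cell cannot be told apart, here and in all comparisons that follow.

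In pear mouthparts compared with control mouthparts, cryptochrome 2 was higher by 0.71 ± 0.08 on the log2 scale, a fold of 1.64, with an adjusted p of 3.68e-05 by edgeR. The comparison called 33.8% of all genes tested, 16.5% as higher and 17.3% as lower. Neither period model passed. The PAS model differed by +0.18 ± 0.12, with an adjusted p of 0.279, and the C-terminal model by +0.20 ± 0.09, with an adjusted p of 0.128. Both values are positive, whereas pollen groups with a called difference from control had lower period levels. Some other fits did call a period model. With only the 6 libraries compared, the C-terminal model gave +0.18 with an adjusted p of 0.0183. Without the libraries of number 2, the PAS model gave +0.35 with an adjusted p of 0.0423.

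The mouthparts of the pollen groups were also compared directly. In olea mouthparts compared with pear mouthparts, all 3 genes were lower, in a comparison that called 30.9% of all genes, 14.9% as higher and 15.9% as lower. The log2 fold change was −0.62 ± 0.12 for the PAS model and −0.70 ± 0.10 for the C-terminal model, with adjusted p of 0.00321 and 0.000275 by edgeR. For cryptochrome 2 it was −0.29 ± 0.08, with an adjusted p of 0.0144, which became 0.0580 at −0.26 without olea library 3. In this pair alone of the pollen comparisons, period and cryptochrome 2 were called in the same direction.

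Among markers of other cells, some lists differed between the mouthparts groups and others had overlapping ranges. The neuron list (17 genes, 16 with counts) summed to 819 to 894 scaled CPM in olea, 898 to 933 in pear and 854 to 893 in control mouthparts. The glia list (12 genes, 9 with counts in olea and control and 10 in pear) summed to 1766 to 1857 in olea, 1642 to 1742 in pear and 1552 to 1611 in control mouthparts, with no overlap between the groups. Of the 4 opsins, the long-wavelength opsin GB50196, the visual pigment of most bee photoreceptors, had 25.7 to 51.4 scaled CPM in olea mouthparts, 0.85 to 1.14 in pear mouthparts and 36.6 to 42.6 in control mouthparts. Another, GB51369, had overlapping ranges in the 3 groups, at 4.35 to 4.83 in olea, 4.06 to 5.18 in pear and 4.58 to 5.86 in control mouthparts. GB41643 had 2.43 to 3.86 in olea, 0.21 to 1.35 in pear and 2.05 to 3.41 in control mouthparts, and GB50034 had 0.41 to 0.76 in olea, 0.37 to 0.80 in pear and 0.16 to 0.43 in control mouthparts. Arrestin GB51068, 1 of the 4 arrestin genes of the list, had 21.8 to 51.9 in olea, 3.81 to 5.91 in pear and 22.9 to 27.2 in control mouthparts. It was picked singly, and the levels of the other arrestins are not given here. Over the 20 genes of the photoreceptor list, of which 19 had counts in olea and pear and 20 in control mouthparts, the summed level was 848 to 879 scaled CPM in olea, 746 to 814 in pear and 736 to 751 in control mouthparts. Summed muscle markers (29 genes, 28 with counts in olea mouthparts) were 35692 in olea library 2 and 37184 in pear library 2, against 23499 to 26464 in the other 7 mouthparts libraries. The royal jelly list, meant for the hypopharyngeal gland, held the 18 genes whose KEGG hit or protein family matched royal jelly protein. Of these, 17 had counts. A match by family alone does not make a gene a royal jelly gene or a marker of the gland. The list summed to 11634 to 14263 scaled CPM in olea, 10278 to 11944 in pear and 83178 to 89645 in control mouthparts. The part of these tissues in the clock gene levels was not tested.

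In the tentacles both pollen groups had lower period and higher cryptochrome 2 than the control group. For olea against control, the edgeR test over 12950 genes gave −0.42 ± 0.07 for the PAS model, with an adjusted p of 0.000644. The C-terminal model gave −0.51 ± 0.07, with an adjusted p of 0.000364, and cryptochrome 2 gave +0.57 ± 0.08, with an adjusted p of 0.000474. These are folds of 0.747, 0.701 and 1.48, and the comparison called 27.9% of all genes tested, 14.4% as higher and 13.5% as lower. For pear against control, the PAS model gave −0.68 ± 0.07, the C-terminal model −0.72 ± 0.07 and cryptochrome 2 +0.58 ± 0.08. The adjusted p by edgeR were 1.55e-05, 2.50e-05 and 0.000347, the folds were 0.624, 0.607 and 1.495, and the comparison called 29.5% of all genes, 14.9% as higher and 14.6% as lower. The olea and pear contrasts share the 3 control libraries and are not independent of each other.

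Between the pollen groups of the tentacles no member passed, in a comparison that called 2.6% of all genes, 1.91% as higher and 0.695% as lower. Olea against pear gave +0.26 ± 0.07 for the PAS model, with an adjusted p of 0.0682 by edgeR. It gave +0.21 ± 0.07 for the C-terminal model (adjusted p of 0.217) and −0.01 ± 0.08 for cryptochrome 2 (adjusted p of 0.982). The ranges of olea and pear libraries did not overlap for either period model, and they overlapped for cryptochrome 2. With only the 6 libraries compared, the PAS model passed with an adjusted p of 0.00976 and the C-terminal model with 0.00365, at +0.26 and +0.21. DESeq2 gave the PAS model +0.26 with an adjusted p of 0.0278.

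Summed neuron markers (17 genes, all with counts) were 1386 to 1424 scaled CPM in olea tentacles, 1430 to 1497 in pear tentacles and 1232 to 1300 in control tentacles. Muscle markers (29 genes, all with counts) summed to 4376 to 4467 in olea, 3169 to 3318 in pear and 4237 to 4783 in control tentacles. The royal jelly list summed to 1070 to 1090 in olea, 1045 to 1068 in pear and 15172 to 23804 in control tentacles. All 18 of its genes were detected in olea and control and 17 in pear. Glia markers (12 genes, 10 with counts in olea and control and 9 in pear) summed to 1810 to 1867 in olea, 1956 to 1963 in pear and 1782 to 1882 in control tentacles. Photoreceptor markers (20 genes, 19 with counts in olea and control and 18 in pear) summed to 788 to 795 in olea, 795 to 815 in pear and 652 to 711 in control tentacles. Of these, the long-wavelength opsin had 0.19 to 0.38 scaled CPM in olea, 0.29 to 0.42 in pear and 1.72 to 1.88 in control tentacles. It had 27, 36 and 226 counts in these groups. The other opsins had overlapping ranges. GB51369 had 11.8 to 12.2 in olea, 11.6 to 12.8 in pear and 9.74 to 12.8 in control tentacles. In the same order, GB41643 had 1.55 to 2.31, 1.79 to 2.32 and 1.09 to 2.18, and GB50034 had 0 to 0.16, 0.06 to 0.15 and 0.07 to 0.35. The part of these differences in the clock gene levels was not tested.

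**Figure D2:**
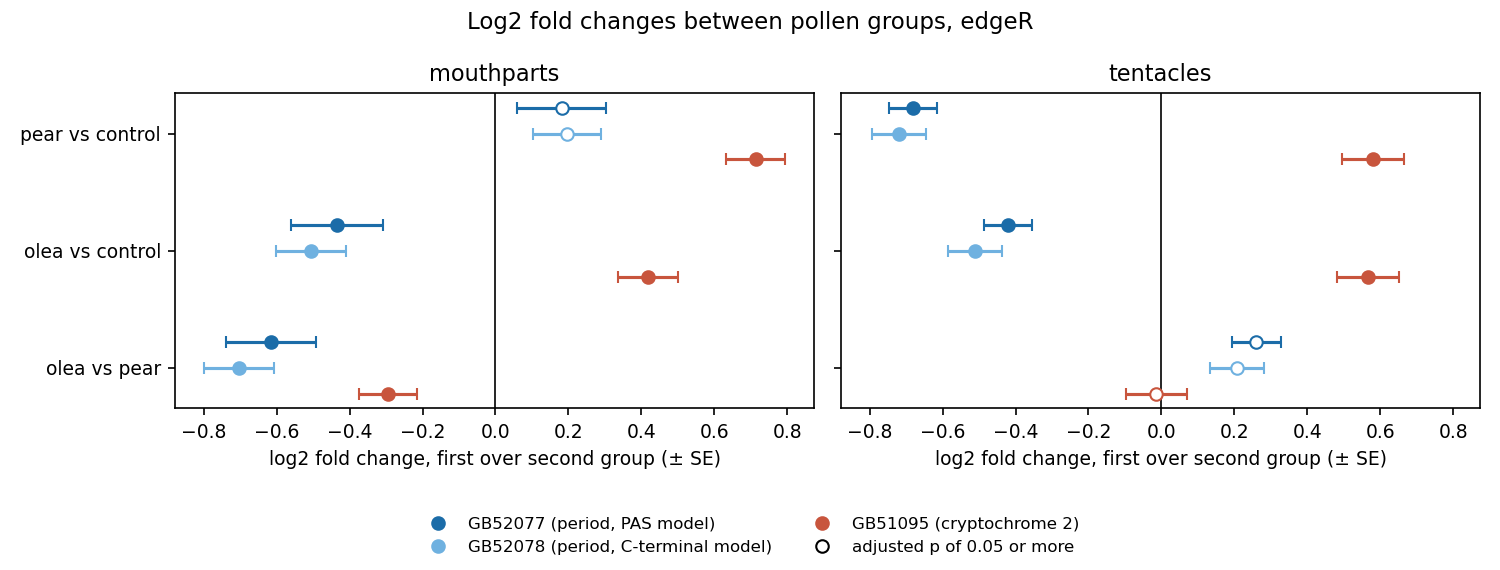
Log2 fold changes (x axis, first group over second, with SE) of both period models and cryptochrome 2 in the 3 pollen comparisons of each tissue. Filled points passed an adjusted p under 0.05 by edgeR and open points did not. Against control, cryptochrome 2 lies right of 0 in all 4 comparisons, and period lies left of 0 in 3 of them and right of 0, with open points, in pear mouthparts.

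Whether the pear contrast differed between the tissues was tested as an interaction in a fit of all 18 libraries, which called 12.8% of 13361 genes, 5.46% as higher and 7.31% as lower. For the PAS model the log2 fold change of pear over control was larger in mouthparts than in tentacles by 0.85 ± 0.14, with an adjusted p of 0.000527 by edgeR. For the C-terminal model it was larger by 0.90 ± 0.13, with an adjusted p of 7.77e-05. Cryptochrome 2 did not pass, at +0.12 ± 0.11 and an adjusted p of 0.557. For the olea contrast the same test called 15.4% of all genes, 4.93% as higher and 10.5% as lower, and none of these 3. Its values were −0.04 ± 0.15 for the PAS model, −0.02 ± 0.13 for the C-terminal model and −0.18 ± 0.11 for cryptochrome 2, with adjusted p of 0.885, 0.930 and 0.316. The period models thus differed between the tissues in the contrast of pear with control and not detectably in that of olea with control.

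The direct contrast of tissues, with the 3 pollen groups weighing equally, called 82.5% of all genes, 39.2% as higher and 43.3% as lower. The PAS model was higher in mouthparts than in tentacles by 0.54 ± 0.06 on the log2 scale (adjusted p of 8.04e-08 by edgeR) and the C-terminal model by 0.20 ± 0.05 (adjusted p of 0.00151). Cryptochrome 2 did not pass, at +0.07 ± 0.05 and an adjusted p of 0.177. The calls and directions of the tissue contrast depend on scaling. With limma on log2(FPKM + 1) the median gene moved by −0.25, and the PAS model still passed as higher at +0.23. The C-terminal model turned to −0.08 and no longer passed (adjusted p of 0.124), and cryptochrome 2 passed as lower at −0.19 (adjusted p of 0.000741). Relative to the median gene these values are +0.48, +0.17 and +0.06.

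The ratio of the period models, which does not depend on the scaling of libraries, differed between the tissues. The PAS model had 0.598 ± 0.048 of the FPKM of the C-terminal model in mouthparts, with a range of 0.536 to 0.677, and 0.475 ± 0.025 in tentacles, with a range of 0.418 to 0.507 (SD, n = 9 libraries each). The ranges did not overlap. Among pollen groups it stayed close together, at 0.621 ± 0.016 in olea, 0.584 ± 0.045 in pear and 0.589 ± 0.077 in control mouthparts, and at 0.490 ± 0.014 in olea, 0.473 ± 0.012 in pear and 0.464 ± 0.040 in control tentacles (SD, n = 3 each). Control mouthparts library 2 had the highest ratio of all, 0.677, and control tentacles library 2 the lowest, 0.418. In the mouthparts library the PAS model was high, at 42.1 scaled CPM against 32.9 and 33.0 in the other controls, and in the tentacles library the C-terminal model was high, at 77.8 against 62.3 and 65.7. Which transcripts or exons the models cover was not analysed here, and no test was run on the ratio. The direct contrast of tissues called 82.5% of all genes, and how many other ratios separate the tissues was not counted.

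The balance of period and cryptochrome 2 can be read from each library in the same way, as the summed counts of both period models over the counts of cryptochrome 2, without regard to length. It was 2.91 ± 0.37 in olea, 3.78 ± 0.062 in pear and 5.48 ± 0.81 in control mouthparts. In tentacles it was 2.76 ± 0.33 in olea, 2.32 ± 0.11 in pear and 5.65 ± 0.33 in control libraries (SD, n = 3 each). The lowest of the 6 control libraries had 4.82 and the highest of the 12 pollen libraries 3.82, so that the ratio separated them in both tissues. Cryptochrome 2 alone also separated them, and how many other genes or ratios do so was not counted. In mouthparts the pear libraries had the higher ratio of the pollen groups, and in tentacles the olea libraries had the higher mean.

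**Figure D3:**
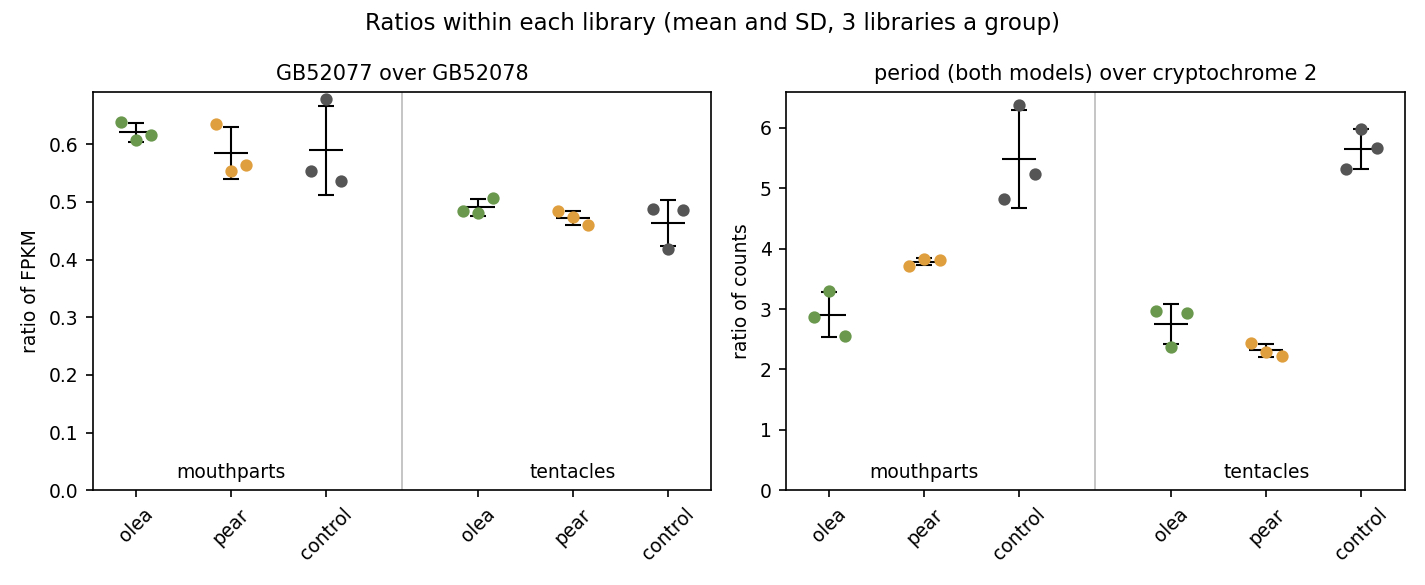
Left, ratio of the FPKM of the PAS model to that of the C-terminal model of period; right, ratio of the summed counts of both period models to those of cryptochrome 2, for each of the 18 libraries by tissue and pollen group. Points are libraries, with the mean and SD of 3. The left ratio is higher in mouthparts (0.536 to 0.677) than in tentacles (0.418 to 0.507), and the right ratio is higher in control libraries (4.82 or more) than in pollen libraries (3.82 or less).

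The rest of the clock was followed in a list of 38 gene IDs with an annotation to a clock function, under 22 names. Of these, 32 were tested in mouthparts and 34 in tentacles and in the fit of both. Some IDs share a name and a best KEGG hit, as those of doubletime and of GSK3 do. Counts of list genes are therefore counts of IDs, which are not all independent genes. They are grouped by role as known from Drosophila. The counts below can be read against the shares of all genes called given above, and the list's median against that of all genes.

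Of the activators that period and cryptochrome 2 repress, Clock has a pair of tested IDs. GB44365, whose best hit is a gene other than that of GB48028, passed as higher in olea and in pear tentacles against control and did not pass in mouthparts. GB48028 did not pass in any pollen comparison. It averaged 83.8 ± 1.3 scaled CPM in olea, 82.3 ± 1.5 in pear and 83.7 ± 1.7 in control mouthparts, and 61.2 ± 1.6 in olea, 59.2 ± 1.4 in pear and 63.9 ± 4.1 in control tentacles (SD, n = 3 each). Cycle (GB43953), the partner of Clock, was higher in all 4 comparisons of pollen with control. It averaged 479 ± 19 scaled CPM in olea, 487 ± 17 in pear and 393 ± 14 in control mouthparts, and 369 ± 10 in olea, 388 ± 3.5 in pear and 258 ± 10 in control tentacles. The edgeR log2 fold changes of cycle against control were +0.30 ± 0.06 in olea mouthparts, +0.32 ± 0.06 in pear mouthparts, +0.50 ± 0.04 in olea tentacles and +0.58 ± 0.04 in pear tentacles. The difference between tissues also passed for cycle, at −0.23 ± 0.07 for olea and −0.28 ± 0.07 for pear, mouthparts minus tentacles, with adjusted p of 0.0378 and 0.0147 by edgeR.

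Of the nuclear receptors and transcription factors of the interlocked feedback loops, 2 of 9 tested were higher in olea mouthparts, 3 of 9 in pear mouthparts, 4 of 11 in olea tentacles and 5 of 11 in pear tentacles, each against control, and none was lower. E75 (GB47224), a nuclear receptor induced by ecdysone, averaged 379 ± 48 scaled CPM in olea, 428 ± 18 in pear and 208 ± 22 in control mouthparts, and 619 ± 39 in olea, 654 ± 51 in pear and 339 ± 37 in control tentacles. Its log2 fold changes against control were +0.89 ± 0.10, +1.05 ± 0.10, +0.86 ± 0.08 and +0.94 ± 0.08 in olea mouthparts, pear mouthparts, olea tentacles and pear tentacles, and all passed by edgeR. Vrille (GB44976), a repressor of Clock transcription, passed as higher in both pollen groups of the tentacles, by 0.35 ± 0.05 in pear, and did not pass in mouthparts. The timeless homolog of the bee is of the kind called timeout, which is not the clock partner of period in Drosophila. One of its IDs, GB41003, was lower in olea than in pear tentacles by 0.88 ± 0.20 on the log2 scale (adjusted p of 0.0446 by edgeR). It was the only list gene called in that comparison, and no list gene was called there with all 18 libraries in the fit or when any of 5 of the 6 libraries compared was left out.

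Among enzymes that act on clock proteins, the GSK3 ID GB53394 (shaggy in Drosophila, a kinase of timeless) was higher in all 4 comparisons with control. Its log2 fold changes were +0.52 ± 0.11 in olea mouthparts, +0.38 ± 0.04 in olea tentacles and +0.36 ± 0.04 in pear tentacles. The PP2A subunit twins (GB50175), part of a phosphatase of period in Drosophila, was higher in olea mouthparts by 0.19 ± 0.05. It also passed as higher in both pollen groups of the tentacles. The beta subunit of casein kinase II (GB49083), a kinase of period in Drosophila, was lower in pear mouthparts by 0.38 ± 0.06 on the log2 scale, and its alpha subunit (GB43105) by 0.22 ± 0.05. In both pollen groups of the tentacles the beta subunit also passed as lower, and the alpha subunit did not pass. The gene tyf (GB40845), an activator of period translation in Drosophila, was higher than control in olea tentacles, at +0.43 ± 0.06. It also passed as higher in pear tentacles. It was the 1 list gene called lower in olea mouthparts, a call that was lost on FPKM, with only the 6 libraries compared, without the libraries of number 2 and without control library 2 or 3. The interaction, mouthparts minus tentacles, passed with −0.74 ± 0.12 and an adjusted p of 0.000437 by edgeR. In olea against pear mouthparts it was lower by 0.62 ± 0.09, beside the lower period in the same libraries.

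Over the whole list, 6 IDs were higher and 1 lower in olea mouthparts against control, with a median log2 fold change of +0.06 against −0.01 for all genes. In pear mouthparts against control, 8 were higher and 3 lower, with a median of +0.08 against +0.01. In olea against pear mouthparts, 2 were higher and 2 lower. In olea tentacles against control, 12 were higher and 1 lower, with a median of +0.13 against 0.00 for all genes. In pear tentacles against control, 13 were higher and 1 lower, with a median of +0.22 against −0.01. The shares of the list that were called, 21.9%, 34.4%, 12.5%, 38.2% and 41.2% in this order, compare with 26.8%, 33.8%, 30.9%, 27.9% and 29.5% of all genes. These counts move with the fit. Without control library 3, olea mouthparts had 3 list genes higher and none lower, and without control library 1, pear mouthparts had 5 higher and 2 lower. With limma on FPKM, pear mouthparts against control had 11 higher and 1 lower, olea against pear mouthparts none higher and 5 lower, and the tissues 4 higher and 24 lower. Between the tissues 8 list genes were higher and 17 lower in mouthparts, 73.5% of those tested. Of these, HR3 (GB47513), a nuclear receptor of the ecdysone response, was lower in mouthparts by 3.78 ± 0.06 on the log2 scale, and Clock (GB48028) was higher by 0.44 ± 0.03.

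**Figure D4:**
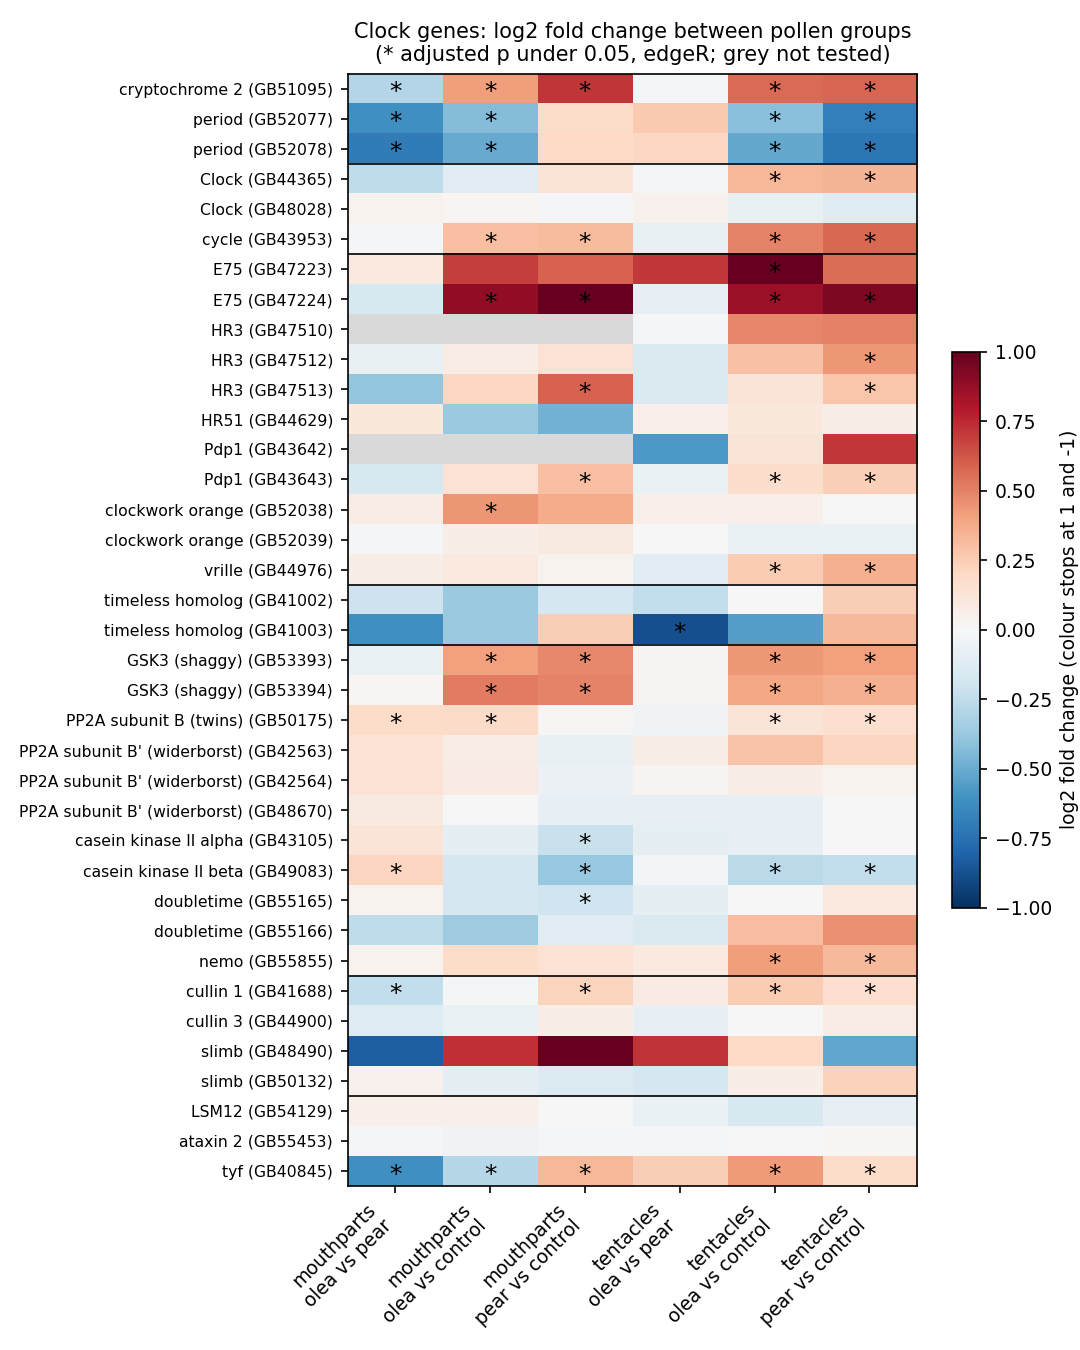
Log2 fold changes (colour, stopping at 1 and −1) of period, cryptochrome 2 and the tested genes of the clock list in the 6 pollen comparisons, in rows by role: members, activators, feedback loops, timeless homolog, kinases and phosphatases, turnover, translation. Stars mark an adjusted p under 0.05 by edgeR, and grey fields were not tested. Cycle, E75 (GB47224), both GSK3 IDs (which share their best KEGG hit) and cryptochrome 2 are starred and red in all 4 comparisons with control. Clock (GB48028) has no star.

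To place the pattern of the 3 genes among all others, 8101 genes with a mean of at least 5 CPM in both tissues were ranked by Pearson's r of log2 CPM with each member over the 18 libraries, after each tissue's mean had been subtracted. The libraries share groups and scaling, and r is a description. The genes most like the PAS model were GB45704 (r = 0.94), which the table does not annotate, GB52198 (0.93), annotated as anillin, an actin-binding protein of cell division, and GB55624 (0.91), a leucine-rich repeat protein. Most like the C-terminal model were GB47418 (0.95), a C2H2 zinc finger protein, then GB52198 (0.94) and GB45704 (0.92). Most like cryptochrome 2 were GB42534 (0.97), annotated as calcium/calmodulin-dependent protein kinase kinase 2, GB43004 (0.96), annotated as 3-phosphoinositide dependent protein kinase 1, and GB55973 (0.96), which the table does not annotate. The period models correlated with each other at r = 0.96 over the same 18 libraries.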

How the data were processed

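Total RNA was sequenced from 18 libraries, 3 for each of 6 groups. Raw counts of reads for each gene were deposited by the authors, and the submitters' processing notes name HISAT2. They also deposited FPKM values for the same genes. Its version, the genome build, the annotation, the counter and the use of strand were not given in the sources used here. In the table, 70 overlong lines were joined before use. Names came from the table's KEGG hits with an e-value of at most 1e-10, with symbols from the reference gene table. The members and gene lists were chosen with earlier results of these data known.

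Counts were fitted with edgeR 4.0.16 in R 4.3.3 (TMM, filterByExpr by group, robust quasi-likelihood F test). Pollen groups were compared in the 9 libraries of a tissue, and tissues and interactions in all 18. Adjusted p is Benjamini-Hochberg adjusted over all genes of a comparison, at a threshold of 0.05. The SE of a log2 fold change was taken from its F value. The fits were also run on simulated counts in which few genes differed, unlike the real comparisons. That run does not cover differences in composition between libraries, and its outcome is not used here. DESeq2 1.42.0, limma 3.58.1 on log2(FPKM + 1), other scalings and filters, and fits without single libraries were alternatives. Of list genes, at most the 4 of smallest p per comparison are given with values. Replicates of a group differed by more than sampling noise, and none was a duplicate.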

Additional observations from a re-analysis of the deposited data

Results flagged for a closer look

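The contrast of pear with control differed between the tissues, by the interaction test of edgeR, for both period models. The difference of log2 fold changes, mouthparts minus tentacles, was 0.85 for GB52077 and 0.90 for GB52078, and it kept its sign and passed in all alternatives run, between 0.78 and 1.01. Of the marker sums given above, those of neurons, glia and the royal jelly list did not overlap between pear and control libraries in either tissue. The photoreceptor and muscle sums did not overlap in tentacles and overlapped in mouthparts. The part of these markers was not tested. In the same test, cycle (GB43953) gave −0.28, vrille (GB44976) −0.33, doubletime (GB55165, a kinase of period in Drosophila) −0.32 and the casein kinase II alpha subunit (GB43105) −0.24. Unlike the period models, these 4 calls did not hold in all alternatives. None of the list was called lower with limma on FPKM, and 1 gene was without pear mouthparts library 3.

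In the contrast of olea with control, the tissues differed by the same test for tyf (GB40845) with −0.74 and the Clock ID GB44365 with −0.47. They also differed for cullin 1 (GB41688, a subunit of ubiquitin ligases) with −0.30 and for cycle (GB43953) with −0.23. These calls also move with the fit. With DESeq2, with limma on FPKM and with a replicate block, 3 list genes were called lower, and without olea mouthparts library 1 there were 5.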

How the results depend on the processing

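Of 27 results (3 genes in 9 comparisons), 16 kept their direction and their side of the threshold in all alternatives, as did 421 of the 447 values. The calls and directions that changed were these, and the cause was not tested. In olea against pear tentacles, the PAS model passed with DESeq2 (+0.257) and with only the 6 libraries compared (+0.261), and so did the C-terminal model with those libraries (+0.208). In pear mouthparts against control, the C-terminal model passed with limma on FPKM (+0.313, adjusted p 0.0210), and with only the 6 libraries compared, that is, without the olea libraries (+0.183). The PAS model passed without the libraries of number 2 (+0.351). Without single libraries, cryptochrome 2 in olea against pear tentacles ran from −0.109 to 0.0301. Between tissues it ran from 0.0502 to 0.107 and passed without olea tentacles library 2 (adjusted p 0.0441). Likewise the PAS model ran from −0.530 to −0.299 in olea mouthparts against control, and cryptochrome 2 from −0.315 to −0.257 in olea against pear mouthparts. The olea interaction, called for none of the 3 genes in any fit, changed sign. Without single libraries it ran from −0.149 to 0.0871 for the PAS model and from −0.150 to 0.0889 for the C-terminal model, which was at 0.00961 with DESeq2 size factors and at 0.00960 with DESeq2. With limma on FPKM it was 0.0302 for the PAS model and 0.0363 for the C-terminal model. The tissue contrast on that scale was −0.0816 for the C-terminal model and −0.190 for cryptochrome 2.

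With a replicate block, the olea interaction was −0.04 for the PAS model and no call of the 3 genes changed. Equal replicate numbers gave no sign of pairing, as 1 of 27 same-numbered pairs of libraries had a correlation of deviations over 0.1. The labels do not say whether libraries were paired, and this check cannot exclude it. In olea against pear tentacles, 337 genes were called, against 519 by DESeq2, 1413 with only the 6 libraries, 168 with all 18 and 143 to 186 without single libraries. On FPKM the pear interaction called 2569 genes, 1926 of them higher, against 1706 with 729 higher. The share of higher calls was 31.8% against 47.5% for tissues and 73.5% against 48.8% for pear mouthparts, and the median gene moved by 0.13 for the interaction, by −0.25 for tissues and by 0.11 for pear mouthparts. Standard errors of 0.07 to 0.13 on the log2 scale within a tissue limit what 3 libraries a group can detect.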
